A study of Homo sapiens with 12 samples.

Results

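The core circadian clock genes were followed in Huh7, a cell line from a human hepatocellular carcinoma, exposed to graphene oxide (GO) with and without a drug load. The 10 genes were chosen by symbol: PER1, PER2, CRY1, CRY2, NR1D1, NR1D2, DBP, ARNTL, BHLHE40 and NFIL3, which are 10 of the 63677 genes in the count table. All 10 were among the 17092 genes tested, those that reached 10 counts in 3 or more samples. The 12 samples formed 4 groups of 3: untreated cells in medium only, and 3 treatments of 6 h, namely 400 µg/mL GO, 400 µg/mL GO-Rg3 and 100 µg/mL GO-Rg3-DOX. GO-Rg3 is GO that carries ginsenoside Rg3, a ginseng saponin, and GO-Rg3-DOX carries doxorubicin (DOX), an anthracycline that intercalates into DNA, as well. The cells came from 1 cell line and each treatment had 1 dose and 1 time. The dose of GO-Rg3-DOX differed from that of the other carriers, so the share of doxorubicin and of dose in a difference cannot be told apart. Free DOX was not analysed here.

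The clock is a feedback loop of transcription. ARNTL (also called BMAL1) and its partner CLOCK bind E-box sequences and switch on the PER and CRY genes, whose proteins return to the nucleus and inhibit the pair. The same pair switches on NR1D1 and NR1D2, the REV-ERB repressors, which compete with the ROR activators on the ARNTL gene. DBP activates and NFIL3 represses genes with a D-box, and BHLHE40 (DEC1) represses genes with an E-box. In liver this loop times metabolic genes across the day, and several of its members also respond quickly to stress, hormones and hypoxia. One time point gives levels, not phase or rhythm.

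Since these factors act on each other's promoters, the letters they bind were looked up in the 250 bases before the RefSeq start sites of the 10 genes (14 start sites, GRCh38.p14). All 10 genes were found, ARNTL as BMAL1. The counts were made on GRCh37, so these positions belong to another build than the gene positions given later. The motifs, read on both strands, were the E-box CACGTG (in 6.34% of 35116 promoters of this length), the E-box variant CACGTT (4.55%), the D-box TTANGTAA (1.98%), the REV-ERB/ROR core TAGGTCA (1.61%) and the cAMP element TGACGTCA (1.65%). CACGTG and CACGTT share their first 5 letters. An E-box or the variant stood before a start site of 7 of the 10 genes, against 12.7% of 27305 genes. The members were picked as clock genes, so such sites were known for many of them. None of the 14 start sites had a cAMP element in this window, and DBP and ARNTL held none of the motifs. Below, the stretch is shown for BHLHE40 and NR1D1, whose levels moved far, and the part around the motifs for other members, with the motif letters in capitals and each read 5′ to 3′ on its gene's strand.
BHLHE40, chr3:4979187-4979436, + strand: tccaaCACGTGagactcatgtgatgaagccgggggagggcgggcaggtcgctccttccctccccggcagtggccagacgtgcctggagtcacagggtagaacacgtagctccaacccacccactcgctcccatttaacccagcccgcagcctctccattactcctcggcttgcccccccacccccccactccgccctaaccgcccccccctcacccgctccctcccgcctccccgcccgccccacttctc
NR1D1, chr17:40100590-40100839, - strand: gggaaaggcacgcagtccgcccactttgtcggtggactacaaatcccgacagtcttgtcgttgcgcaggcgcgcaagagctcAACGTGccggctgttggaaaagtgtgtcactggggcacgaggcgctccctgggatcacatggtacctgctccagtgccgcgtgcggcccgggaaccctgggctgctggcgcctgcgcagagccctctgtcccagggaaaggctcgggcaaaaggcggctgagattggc
PER1, chr17:8152552-8152597, - strand: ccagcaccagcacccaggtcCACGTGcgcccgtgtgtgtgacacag
PER2, chr2:238288782-238288827, - strand: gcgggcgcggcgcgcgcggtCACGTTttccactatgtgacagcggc
CRY1, chr12:107093613-107093658, - strand: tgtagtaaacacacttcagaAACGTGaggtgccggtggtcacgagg
CRY2, chr11:45847267-45847436, + strand: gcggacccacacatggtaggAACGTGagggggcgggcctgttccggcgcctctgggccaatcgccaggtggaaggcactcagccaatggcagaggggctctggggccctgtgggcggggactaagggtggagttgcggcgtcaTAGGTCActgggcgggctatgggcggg
NR1D2, chr3:23945907-23946041, + strand: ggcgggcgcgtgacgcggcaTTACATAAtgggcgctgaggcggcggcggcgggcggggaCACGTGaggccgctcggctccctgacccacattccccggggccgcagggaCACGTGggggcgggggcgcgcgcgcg
NFIL3, chr9:91423833-91423861, - strand: cgtagcgcggcgctcggaacTGACCTAct

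Counted from the start site, with -1 as the last base before it, the motifs begin at -245 in BHLHE40 (E-box), at -173 in PER1 (E-box), and at -197 in PER2, -168 in NR1D1 and -89 in CRY1 (the variant). The second start site of NR1D2 has E-boxes at -155 and -105 and a D-box at -194. The second start site of CRY2 has the variant at -188 and the REV-ERB/ROR core at -65, and that of NFIL3 has the core at -9. A match is a description of letters and not of binding.

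Totals per library ranged from 27802871 to 38877420 counts. Levels are given as CPM, a library's counts rescaled to a common total, with TMM scaling, and errors are SD with n = 3. Mitochondrially encoded genes took 5.31 to 6.28% of counts in untreated cells and 6.89 to 7.42% after GO-Rg3, but 12.1 to 24.1% after GO and 12.8 to 19.4% after GO-Rg3-DOX. GO replicate 1 stood apart from the other GO samples, with the highest mitochondrial share. Libraries also differed in how level followed transcript GC content, measured as Spearman's rho over genes between the log2 level, relative to the mean of the 12 libraries, and GC content. This GC trend was -0.48 to -0.39 in untreated cells, -0.016 to 0.39 after GO, -0.62 to 0.086 with GO-Rg3 and 0.23 to 0.30 with GO-Rg3-DOX. The 8 hepatocyte markers, ALB and AFP among them, were all above 1 CPM in every group, whereas the 4 endothelial markers summed to at most 0.70 CPM. Fewer cells and less RNA per cell cannot be told apart in such samples, and levels are relative to the total. The labels do not say whether replicates were separate cultures, so p-values measure only the spread between these samples.

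In untreated cells the clock genes spanned a wide range of levels. Per kilobase of exon, NFIL3 was highest at 27.6 ± 0.38 CPM per kb, followed by BHLHE40 at 18 ± 1.05 and CRY1 at 14.7 ± 0.41. PER2 had 9.78 ± 0.052 CPM per kb, CRY2 8.0 ± 0.077, PER1 5.09 ± 0.046, NR1D2 4.73 ± 0.13 and NR1D1 2.47 ± 0.30. ARNTL at 0.49 ± 0.031 and DBP at 0.17 ± 0.035 CPM per kb were lowest. No neighbors in this order overlapped in the 3 untreated samples. The counts behind ARNTL (51 to 144 per library) and DBP (16 to 56) were small, so only large differences in these genes were detectable.

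**Figure D1:**
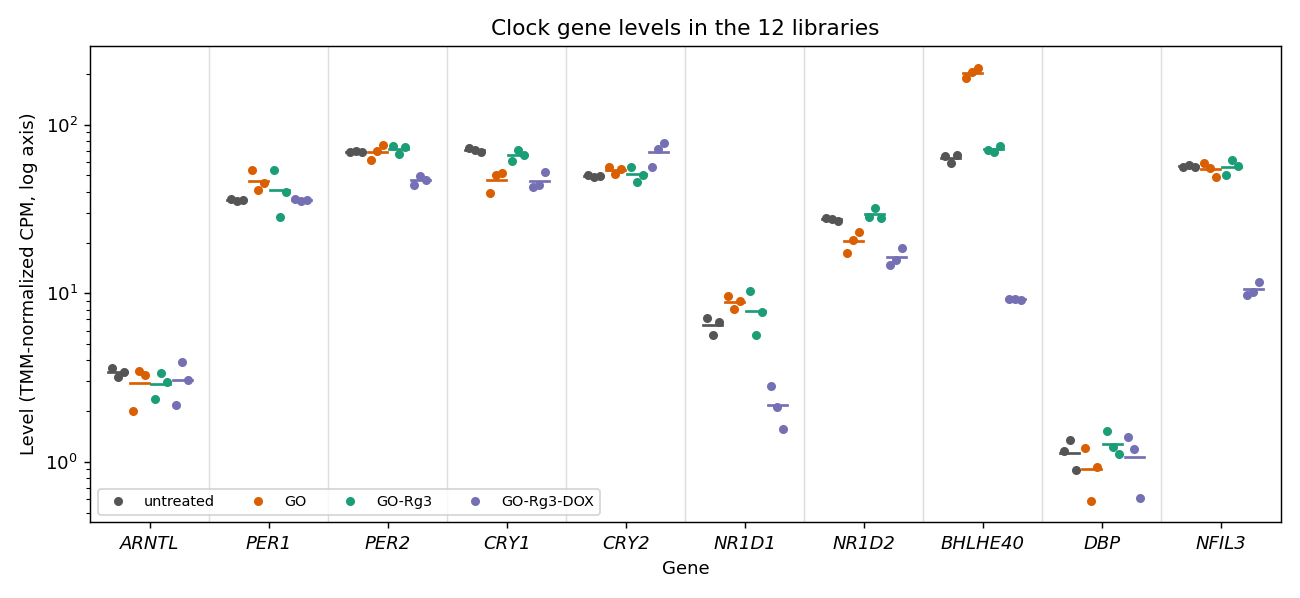
Level of each of the 10 clock genes in every library, in TMM-normalized CPM on a log axis; points are libraries, short lines are group means, and colors are the 4 groups. BHLHE40 lies near 204 CPM after GO and near 9 CPM after GO-Rg3-DOX, and NFIL3 and NR1D1 are low after GO-Rg3-DOX alone.

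Each treatment was compared with untreated cells, and GO-Rg3 with GO at the same dose. The paper made GO-Rg3 by heating GO and Rg3 in sulfuric acid and reports larger flakes than for GO. The share of the ginsenoside and of these changes in the carrier cannot be told apart. GO-Rg3-DOX was not compared with GO-Rg3 here, so no comparison is of the loaded drug alone. The 3 comparisons with untreated cells share the same 3 control samples. A gene passed the test at an adjusted p below 0.01 and was called differentially expressed when its absolute log2 fold change was also above 1. All adjusted p-values were given by the quasi-likelihood test of edgeR, with the Benjamini-Hochberg method applied over the 17092 genes.

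GO raised 1 of the 10 genes, BHLHE40, and lowered 1, CRY1, while 8 did not pass. Among all genes tested, 12.1% rose and 15.4% fell, and 3.84% rose and 2.62% fell with an absolute log2 fold change above 1. The share of members that passed was thus not above that of all genes. The median log2 fold change of the members was -0.03, against 0.0084 over all genes. BHLHE40 was the only member to be differentially expressed.

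After GO-Rg3, 0 of the 10 genes passed, and 0 had an unadjusted p below 0.05 with edgeR. DESeq2 also called 0. In that comparison only 0.0585% of all genes rose and 0.105% fell, or 0.0117% and 0.0468% with the fold threshold, so a list of 10 would hold few calls whatever its nature. The members' median log2 fold change was 0.08, against -0.0011 over all genes.

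GO-Rg3-DOX lowered 6 members, PER2, CRY1, NR1D1, NR1D2, BHLHE40 and NFIL3, and raised 1, CRY2. ARNTL, PER1 and DBP did not pass. Of all genes, 30.5% fell and 25.5% rose, and 18.2% fell and 12.6% rose with the fold threshold. The 3 members that fell beyond the fold threshold were BHLHE40, NFIL3 and NR1D1. The members' median log2 fold change was -0.58, against -0.056 over all genes. Scaling by library totals alone moved the median of all genes to -0.47 and turned the split of calls from 4350 higher and 5214 lower to 2152 and 7293. Sums of markers of other cells were higher in these libraries (fibroblast markers 10.4 to 14.0 CPM over 4 genes against 3.65 to 4.96 in untreated cells, leukocyte markers 3.25 to 3.81 over 4 genes against 1.25 to 1.72). Of these, 2 fibroblast and 3 leukocyte markers stayed under 1 CPM in every library, and the part of these markers in the result was not tested.

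Against GO, GO-Rg3 had 2 members higher, CRY1 and NR1D2, and 1 lower, BHLHE40, with 7 that did not pass. Of all genes, 7.33% were higher and 6.25% lower, or 0.702% and 2.07% with the fold threshold. The median log2 fold change was 0.0035 over the members and -0.023 over all genes. With library totals alone the median of all genes was 0.12 and the calls split into 1209 higher and 489 lower, against 1253 and 1068. In GO against untreated cells the same scaling gave a median of -0.11, with 1223 higher and 2780 lower against 2074 and 2639.

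**Figure D2:**
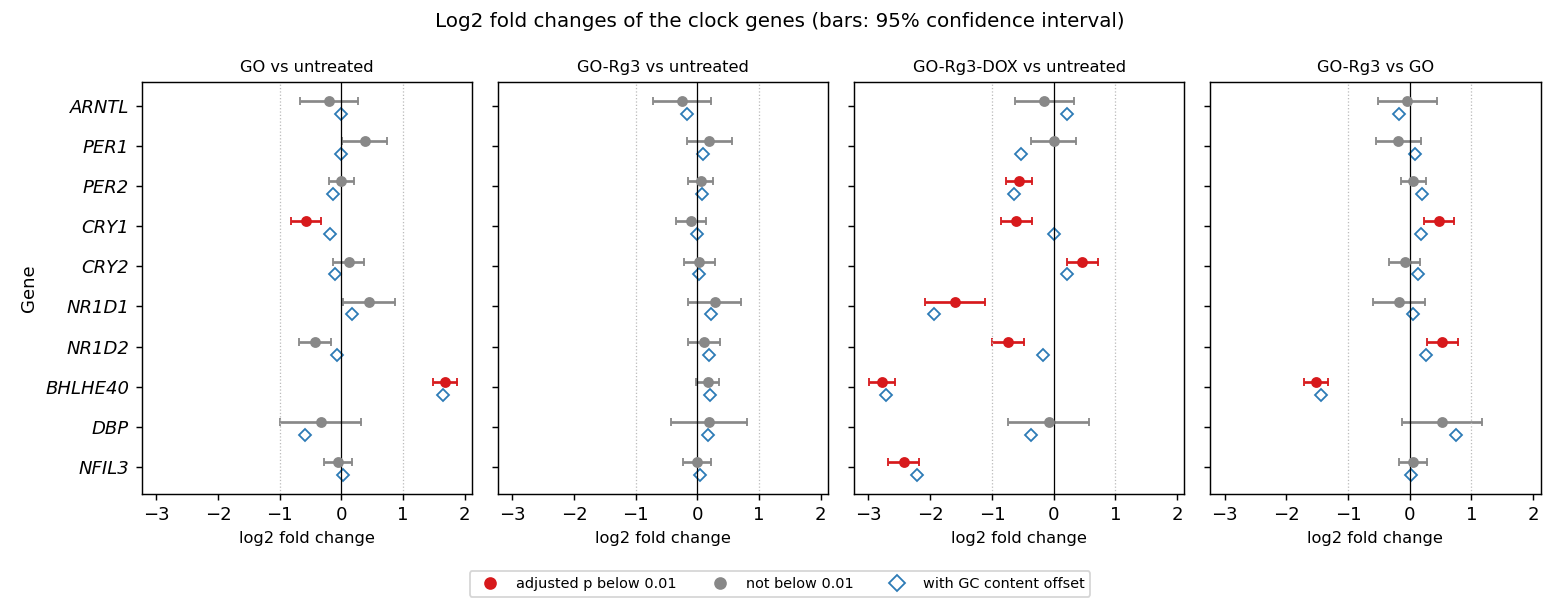
Log2 fold change of each clock gene in the 4 comparisons; filled points are estimates with 95% confidence intervals, red where the adjusted p is below 0.01 and gray otherwise, and open diamonds are estimates with an offset for transcript GC content. BHLHE40, NFIL3 and NR1D1 keep their large changes with the offset, whereas the red points of CRY1, CRY2 and NR1D2 move toward 0.

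Log2 fold changes went along with GC content, and the cause was not tested. In the same order of comparisons, the log2 fold changes over 16622 genes followed GC content with a Spearman's rho of 0.43 (GO), 0.20 (GO-Rg3), 0.36 (GO-Rg3-DOX) and -0.43 (GO-Rg3 against GO). The GC trend of the untreated libraries did not overlap that of the GO or GO-Rg3-DOX libraries. An offset for GC content thus also takes out any treatment effect that follows GC content. A call lost with the offset can therefore not be assigned to either. Every comparison was also fitted with such an offset. In that fit, the members that passed were 1 higher and 0 lower after GO, against 14.9% and 15.2% of all genes. After GO-Rg3 0 were higher and 0 lower, against 0.293% and 0.532%. After GO-Rg3-DOX 0 were higher and 5 lower, against 31.6% and 27.5%, so that more of all genes were higher than lower there. For GO-Rg3 against GO 0 were higher and 1 lower, against 9.47% and 7.98%. CRY1 and NR1D2 have GC-poor transcripts (37.2 and 38.3% GC), PER1, NR1D1, CRY2 and DBP GC-rich ones (62.7, 58.9, 57.0 and 57.8%), and the median over tested genes was 47.8%. BHLHE40 with 50.0% and NFIL3 with 46.2% lie near the median.

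BHLHE40 (ENSG00000134107, chr3:5021122-5027008, + strand, GRCh37) encodes DEC1, a repressor that binds E-boxes and is also a known target of hypoxia and stress signaling. Its level in replicates 1 to 3 was 65.0, 59.2 and 66.1 CPM in untreated cells, 188.9, 204.8 and 218 after GO, 71.1, 68.5 and 74.3 after GO-Rg3, and 9.27, 9.27 and 9.11 after GO-Rg3-DOX. No 2 groups overlapped, with the order GO-Rg3-DOX, untreated, GO-Rg3, GO. GO raised it 3.21-fold (log2 fold change 1.68, SE 0.090, adjusted p = 1.4e-08), from 63.4 ± 3.68 to 204 ± 14.7 CPM.
GO-Rg3 left it at 71.3 ± 2.92 CPM, a log2 fold change of 0.17 with an adjusted p of 0.44 and a 95% confidence interval of -0.019 to 0.36. Against GO, GO-Rg3 was 2.86-fold lower (log2 fold change -1.52, SE 0.089, adjusted p = 5.4e-08). After GO-Rg3-DOX BHLHE40 fell 6.88-fold to 9.22 ± 0.092 CPM (log2 fold change -2.78, SE 0.098, adjusted p = 3.3e-11). In these 3 comparisons it passed in all 16 alternative fits, with log2 fold changes of 1.57 to 1.74, -1.57 to -1.37 and -3.20 to -2.71. Its exons share 451 bases with BHLHE40-AS1 on the other strand, and whether the counting used strand is not given in the sources used here, so reads of the pair cannot be told apart.

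NFIL3 (ENSG00000165030, chr9:94171327-94186114, - strand), the repressor at D-boxes, was level in 3 groups and low in the last. Untreated replicates had 56.2, 57.7 and 56.5 CPM, GO 59.6, 55.2 and 49.0, GO-Rg3 50.6, 61.7 and 57.1, and GO-Rg3-DOX 9.72, 10.2 and 11.7. The GO-Rg3-DOX samples lay below all others, and the other groups overlapped. NFIL3 fell 5.39-fold after GO-Rg3-DOX (log2 fold change -2.43, SE 0.12, adjusted p = 2.6e-10) and passed in all 16 alternative fits (-2.84 to -2.21). Its log2 fold change was -0.057 after GO (adjusted p = 0.69) and -0.0088 after GO-Rg3 (adjusted p = 0.99). The study picked BHLHE40 and NFIL3 on these same samples as lowered by GO-Rg3-DOX, so their falls are not independent evidence of it.

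DBP (ENSG00000105516, chr19:49133287-49140636, - strand), the activator that competes with NFIL3 for D-boxes and a strongly rhythmic gene in liver, was barely expressed. Its replicates had 1.16, 1.34 and 0.89 CPM in untreated cells, 1.21, 0.59 and 0.93 after GO, 1.51, 1.22 and 1.11 after GO-Rg3, and 1.40, 1.19 and 0.61 after GO-Rg3-DOX. All groups overlapped, and no comparison passed. Its 95% confidence interval on the log2 scale reached from -0.99 to 0.32 for GO, from -0.42 to 0.80 for GO-Rg3 and from -0.74 to 0.58 for GO-Rg3-DOX. Changes of that size were not detectable at this depth. DBP shares 661 exon bases with SPHK2 on the other strand, so its few counts are uncertain.

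With edgeR and no offset, both REV-ERB genes fell after GO-Rg3-DOX, and neither passed after GO or GO-Rg3. NR1D1 (ENSG00000126368, chr17:38249046-38256842, - strand), which encodes REV-ERBα, had 7.17, 5.63 and 6.71 CPM in untreated cells, 9.63, 8.05 and 9.0 after GO, 10.3, 5.66 and 7.69 after GO-Rg3, and 2.80, 2.12 and 1.56 after GO-Rg3-DOX. The GO-Rg3-DOX samples lay below all others, the GO samples above the untreated ones, and GO-Rg3 overlapped both. NR1D1 fell 3.02-fold after GO-Rg3-DOX (log2 fold change -1.60, SE 0.23, adjusted p = 1.9e-05) and passed in all 16 alternative fits (-2.02 to -1.41). After GO its log2 fold change was 0.45 with an adjusted p of 0.084, and 0.17 to 0.52 over the alternative fits, none of which passed. Its exons share 473 bases with THRA, which runs in the opposite direction, so reads of the pair cannot be told apart there.

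NR1D2 (ENSG00000174738, chr3:23986777-24022108, + strand), which encodes REV-ERBβ, had 28.1, 27.4 and 26.7 CPM in untreated cells, 17.3, 20.7 and 23.2 after GO, 28.5, 32 and 28 after GO-Rg3, and 14.8, 15.8 and 18.6 after GO-Rg3-DOX. GO and GO-Rg3-DOX samples lay below all untreated and GO-Rg3 samples. It fell 1.67-fold after GO-Rg3-DOX (log2 fold change -0.74, SE 0.12, adjusted p = 7.0e-05). With the GC offset the log2 fold change was -0.16 with an adjusted p of 0.092, so that call was lost. After GO the log2 fold change was -0.43 with an adjusted p of 0.011, short of the threshold. It passed in 4 of 16 alternative fits, with DESeq2 (-0.40), no filter (-0.45), the replicate number as a block (-0.43) and without GO replicate 3 (-0.52), and was -0.066 under the GC offset. GO-Rg3 was higher than GO (log2 fold change 0.53, SE 0.12, adjusted p = 0.0052), and this passed in 8 of 16 alternative fits, with 0.26 under the GC offset. That call was lost without GO replicate 1 (0.43), GO replicate 2 (0.54), GO-Rg3 replicate 2 (0.47) or GO-Rg3 replicate 3 (0.57).

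CRY1 (ENSG00000008405, chr12:107385142-107487327, - strand) and CRY2 (ENSG00000121671, chr11:45868669-45904799, + strand) encode the cryptochromes, the strongest inhibitors of ARNTL and CLOCK. CRY1 had 72.4, 70.4 and 68.5 CPM in untreated cells, 39.6, 50.0 and 52.0 after GO, 60.6, 70.5 and 66.2 after GO-Rg3, and 42.6, 44 and 52.4 after GO-Rg3-DOX. GO and GO-Rg3-DOX samples overlapped each other and lay below all samples of the other groups. CRY1 fell 1.49-fold after GO (log2 fold change -0.58, SE 0.12, adjusted p = 0.0012) and 1.52-fold after GO-Rg3-DOX (-0.60, SE 0.12, adjusted p = 2.9e-04).
With the GC offset these became -0.19 (adjusted p = 0.038) and 0.013 (adjusted p = 0.88), so neither call held and the latter turned its sign. GO-Rg3 was higher than GO (log2 fold change 0.48, SE 0.12, adjusted p = 0.0075), a difference that passed in 7 of 16 alternative fits and was 0.18 with the GC offset. It did not pass without GO replicate 1 (0.37), 2 (0.52) or 3 (0.55), or without GO-Rg3 replicate 2 (0.42) or 3 (0.47).

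CRY2 had 50.0, 49.1 and 49.7 CPM in untreated cells, 56.1, 51.1 and 54.3 after GO, 55.8, 45.9 and 50.5 after GO-Rg3, and 56.5, 71.4 and 77.8 after GO-Rg3-DOX. The GO-Rg3-DOX samples were the highest, with replicate 1 just above the highest GO sample. CRY2 was the only member to rise after GO-Rg3-DOX, by 1.38-fold (log2 fold change 0.47, SE 0.11, adjusted p = 0.0021). It passed in 11 of 16 alternative fits. The log2 fold change was 0.22 with the GC offset and 0.063 with library totals alone, neither past the test, and the call was also lost without GO-Rg3-DOX replicate 2 (0.44) or replicate 3 (0.37).

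PER1 and PER2 encode the period proteins, PER1 being the one that hormones and cAMP induce fastest. PER2 (ENSG00000132326, chr2:239152685-239198743, - strand) had 69.1, 69.7 and 69.1 CPM in untreated cells, 61.9, 69.8 and 75.5 after GO, 74.4, 67.0 and 74.2 after GO-Rg3, and 44, 49.9 and 46.9 after GO-Rg3-DOX. The GO-Rg3-DOX samples lay below all others, which overlapped. PER2 fell 1.48-fold after GO-Rg3-DOX (log2 fold change -0.56, SE 0.096, adjusted p = 1.0e-04) and passed in all 16 alternative fits (-0.97 to -0.49).

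PER1 (ENSG00000179094, chr17:8043790-8059824, - strand) had 36, 35.4 and 35.6 CPM in untreated cells, 53.7, 40.8 and 44.8 after GO, 54.2, 28.4 and 39.7 after GO-Rg3, and 36, 35.1 and 35.8 after GO-Rg3-DOX. The GO samples lay above the untreated ones, and the GO-Rg3 samples spread from below to above both groups. No comparison passed the test. After GO the log2 fold change was 0.38 with an adjusted p of 0.085, and after GO-Rg3-DOX the 95% confidence interval ran from -0.37 to 0.37. Under the GC offset PER1 fell after GO-Rg3-DOX (log2 fold change -0.53, adjusted p = 1.1e-05) and had a log2 fold change of -0.0048 after GO. The 2 GO-Rg3 replicates farthest apart in PER1 were also those with the highest and lowest GC trend of that group (replicate 1 at 0.086 and replicate 2 at -0.62). The part of the GC trend in this spread was not tested.

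**Figure D3:**
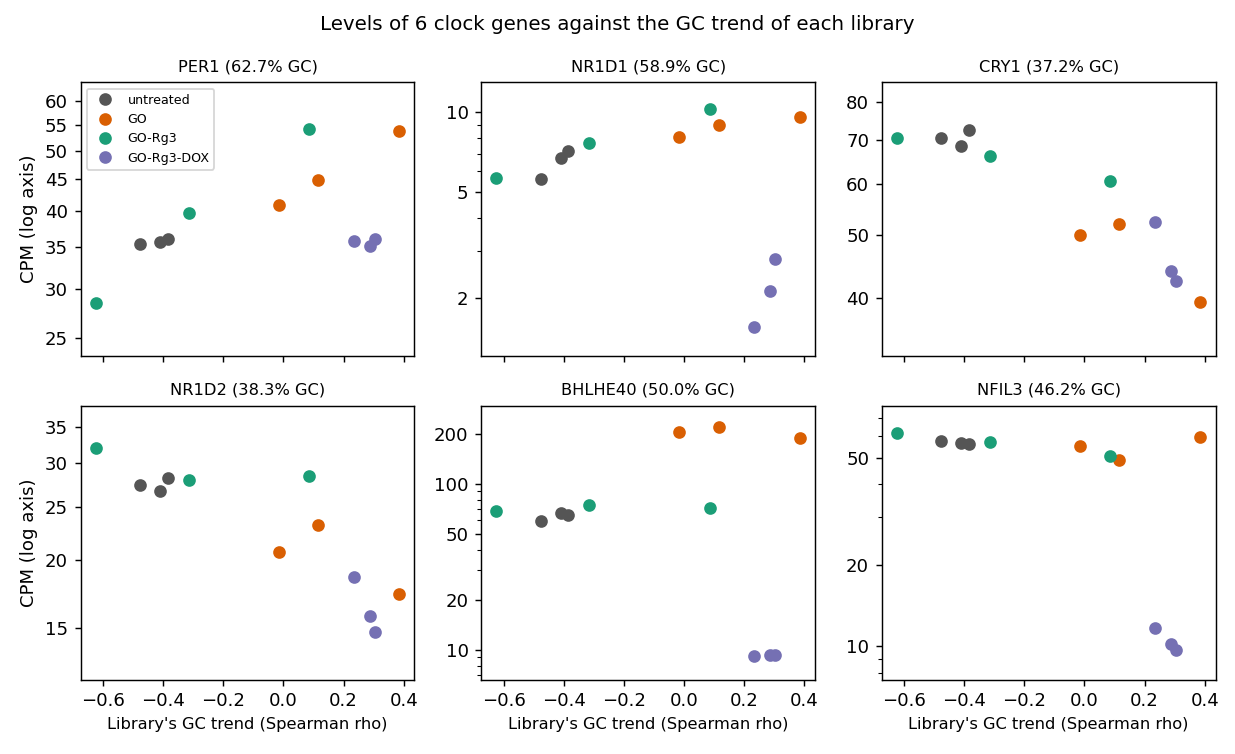
Level of 6 clock genes in CPM on a log axis against the GC trend of each library, Spearman's rho over genes; each point is 1 of the 12 libraries, colored by group, and the transcript GC content stands in each title. PER1 and NR1D1 tend to be high and CRY1 and NR1D2 low in libraries with a high trend, with exceptions. PER1 and NR1D1 after GO-Rg3-DOX lie below the GO libraries of like trend. CRY1 and NR1D2 in GO-Rg3 replicate 1 (60.6 and 28.5 CPM at a trend of 0.086) lie above all GO libraries. BHLHE40 separates by group, and NFIL3 is low after GO-Rg3-DOX alone.

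ARNTL (ENSG00000133794, chr11:13298199-13408813, + strand), the activator of the loop, was weakly expressed and did not pass in any comparison. It had 3.62, 3.20 and 3.39 CPM in untreated cells, 2.0, 3.48 and 3.28 after GO, 2.35, 3.34 and 2.96 after GO-Rg3, and 2.18, 3.92 and 3.05 after GO-Rg3-DOX. All groups overlapped. The 95% confidence interval of the log2 fold change was -0.67 to 0.27 after GO, -0.71 to 0.22 with GO-Rg3 and -0.63 to 0.33 with GO-Rg3-DOX. ARNTL, PER2 and CRY1 share 421, 188 and 94 exon bases with noncoding genes on the other strand.

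Ratios of paired genes within a library do not depend on scaling. They were computed for PER1/PER2, CRY1/CRY2, NR1D1/NR1D2 and DBP/NFIL3 as log2 of (count + 0.5) over (count + 0.5), in 4 comparisons each. The DBP/NFIL3 ratio, activator over repressor of the D-box, was -5.65 ± 0.28 in untreated cells, -5.94 ± 0.51 after GO, -5.45 ± 0.35 with GO-Rg3 and -3.36 ± 0.76 with GO-Rg3-DOX. The shift after GO-Rg3-DOX largely restates the fall of NFIL3 (log2 fold change -2.43). DBP had -0.080 there (adjusted p = 0.83 with edgeR), on 16 to 34 counts. The GO-Rg3-DOX libraries lay 2.29 above the untreated ones without overlap (two-sided exact permutation p = 0.1, the smallest that 3 against 3 allows). None of the 16 ratio tests can therefore reach 0.05, and they are given as sizes and overlaps.
The CRY1/CRY2 ratio was 0.50 ± 0.038 in untreated cells, -0.20 ± 0.26 after GO, 0.38 ± 0.25 with GO-Rg3 and -0.56 ± 0.15 with GO-Rg3-DOX. CRY1 thus had more counts than CRY2 in all untreated and GO-Rg3 libraries and fewer in all others. The NR1D1/NR1D2 ratio moved in opposite directions, from -2.08 ± 0.17 in untreated cells to -1.19 ± 0.30 after GO and to -2.94 ± 0.58 after GO-Rg3-DOX, both without overlap, with -1.94 ± 0.52 after GO-Rg3.
The PER1/PER2 ratio was -0.96 ± 0.020 in untreated cells, -0.58 ± 0.32 after GO, -0.87 ± 0.39 with GO-Rg3 and -0.39 ± 0.11 with GO-Rg3-DOX. It lay above the untreated libraries in all GO and GO-Rg3-DOX libraries. The partners of each pair differ in GC content, and the part of the GC trend in the ratios was not tested.

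**Figure D4:**
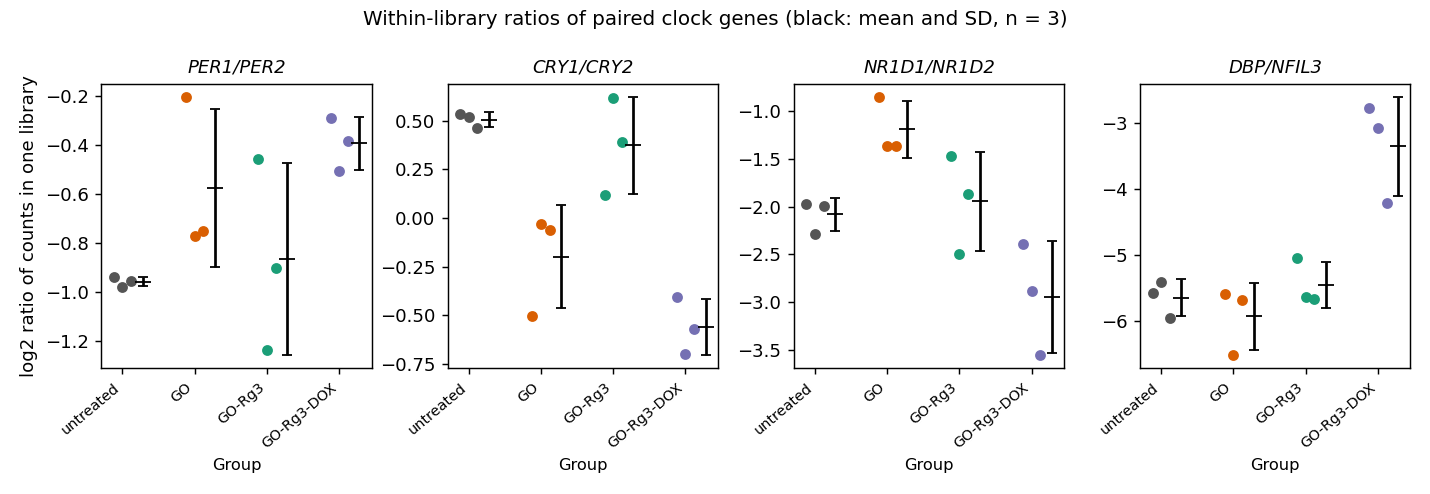
Log2 ratio of the counts of 2 clock genes within each library, by group; colored points are libraries and black marks the group mean with SD (n = 3). DBP/NFIL3 is raised after GO-Rg3-DOX alone, at -3.36 against -5.65 in untreated cells, where NFIL3 fell and DBP did not pass the test. NR1D1/NR1D2 lies above the untreated libraries after GO and below them after GO-Rg3-DOX.

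Of 19 other genes of the clock machinery, 18 were tested, and RORB had too few counts. GO raised 5 and lowered 0 of the 18, against 12.1% and 15.4% of all genes. RORA, the nuclear receptor that competes with the REV-ERBs on the ARNTL gene, had 1.35, 1.34 and 1.08 CPM in untreated cells, 4.54, 5.70 and 5.21 after GO, 1.03, 1.29 and 1.03 after GO-Rg3 and 0.70, 0.83 and 0.88 after GO-Rg3-DOX. The GO samples lay above all others. RORA rose 4.12-fold after GO (log2 fold change 2.04, SE 0.17, adjusted p = 6.8e-07), and it was 4.65-fold lower after GO-Rg3 than after GO (adjusted p = 6.2e-07). Its rise was 2.47 with the GC offset.
BHLHE41 (DEC2), the paralog of BHLHE40, also rose after GO (log2 fold change 1.96, SE 0.48, adjusted p = 0.0043), on 10 to 18 counts per library against 2 to 5. HLF (log2 fold change 0.78) and TEF (0.58), which like DBP activate D-box genes, and NPAS2 (0.36), a stand-in for CLOCK, rose after GO. DESeq2 called 6 higher and 0 lower of the 18, against 2566 and 2902 of 17092 genes. The fit with the GC offset gave 8 higher and 1 lower, against 14.9% and 15.2% of all genes. The lower one was TIMELESS (log2 fold change -0.27). With edgeR and no offset, 10 of the 18 had an unadjusted p below 0.05, and the share of all genes below it is not given here. Without untreated replicate 1, 2 or 3, each left out in turn, edgeR called 3 higher and 0 lower. Of 17092 genes, 1271, 1320 and 1263 were then higher and 1793, 1805 and 1810 lower.

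After GO-Rg3, 0 of the 18 passed with edgeR, with 3 at an unadjusted p below 0.05 (NPAS2, HLF and FBXL21), and DESeq2 called 1, HLF (log2 fold change 0.45). Compared with GO, GO-Rg3 had 3 lower and 0 higher, against 6.25% and 7.33% of all genes, namely RORA, TEF (log2 fold change -0.50, adjusted p = 0.0057) and C1orf51. The call of TEF was lost with the GC offset (-0.30, adjusted p = 0.029) and with library totals alone (-0.36, adjusted p = 0.095). Without GO replicate 3, GO-Rg3 replicate 2 or GO-Rg3 replicate 3, 1 of the 18 was lower, against 659, 749 and 533 of 17092 genes. C1orf51, the repressor CHRONO, rested on 3, 1 and 1 counts after GO-Rg3 against 7, 18 and 27 after GO (adjusted p = 0.0023). Untreated cells had 1, 5 and 10 counts, and its log2 fold change after GO was 1.84 (adjusted p = 0.012), short of the threshold.

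GO-Rg3-DOX lowered 8 and raised 2 of the 18, against 30.5% and 25.5% of all genes, with a median log2 fold change of -0.41. The F-box genes FBXL21 (log2 fold change -2.25, on 16 to 20 counts per library against 115 to 128), FBXW11 (-1.73) and BTRC (-1.31) fell. FBXW11 and BTRC encode ubiquitin ligase subunits for PER proteins. USP2, a deubiquitinase, fell from 7.74 ± 0.35 to 1.40 ± 0.31 CPM (log2 fold change -2.45, SE 0.17, adjusted p = 8.1e-09). TEF (-1.55), CCRN4L (-1.02), which encodes nocturnin, and the kinase GSK3B (-1.0) fell as well.
CLOCK, the partner of ARNTL, had 16.9, 17.7 and 16.0 CPM in untreated cells and 11.2, 11.6 and 13.0 after GO-Rg3-DOX (log2 fold change -0.49, SE 0.14, adjusted p = 0.0063). Under the GC offset the fall of CLOCK was lost (0.11, adjusted p = 0.21), and after GO the gene rose under that offset (0.42 against 0.040 without). Its transcript has 37.6% GC. Those that rose were TIMELESS (log2 fold change 0.77) and C1orf51 (2.74, adjusted p = 1.9e-04, on 19 to 38 counts against 1 to 10). In the fit with the GC offset 9 were lower and 3 higher, against 27.5% and 31.6% of all genes. With library totals alone 12 were lower and 2 higher, against 7293 and 2152 of 17092 genes.

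**Figure D5:**
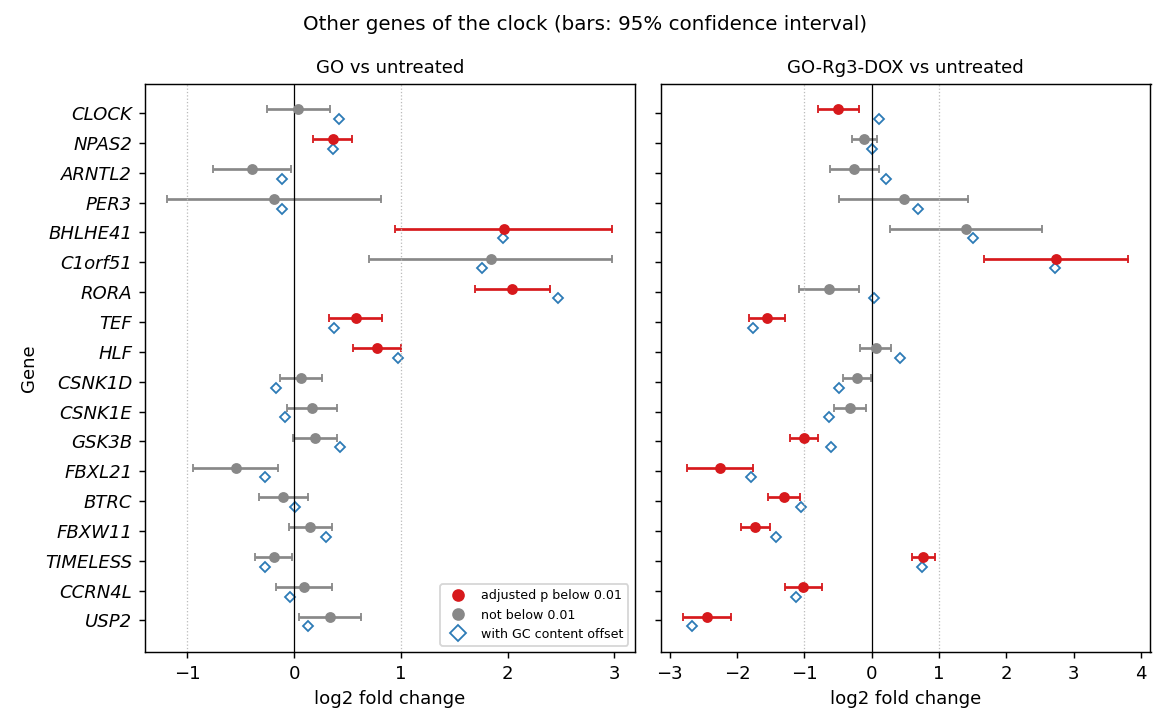
Log2 fold changes of 18 other clock genes after GO and after GO-Rg3-DOX; filled points with 95% confidence intervals are red where the adjusted p is below 0.01, and open diamonds show the estimate with the GC offset. RORA and BHLHE41 stand out after GO, as does C1orf51, which did not pass the test there. FBXL21, FBXW11, USP2 and TEF lie far to the left after GO-Rg3-DOX.

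Among 7 genes known as outputs of the clock, GO raised 1 and lowered 0, against 12.1% and 15.4% of all genes. GO-Rg3 changed 0 (0 at an unadjusted p below 0.05 with edgeR, 0 with DESeq2). GO-Rg3-DOX raised 2 and lowered 4, against 25.5% and 30.5%. WEE1, a kinase that holds back mitosis, fell 5.16-fold after GO-Rg3-DOX (log2 fold change -2.37, SE 0.12, adjusted p = 3.8e-10), and KLF9, a transcription factor induced by glucocorticoids, rose 2.12-fold (1.08, adjusted p = 7.9e-06). KLF9 was also the gene that rose after GO (log2 fold change 0.91, adjusted p = 1.8e-04) and the 1 that was lower in GO-Rg3 than in GO (-0.78, adjusted p = 0.0013), with 0 higher, against 6.25% lower and 7.33% higher of all genes. With the GC offset 3 of the 7 were higher after GO, against 14.9% of all genes. For GO-Rg3 against GO 3 were lower with it, against 7.98%. WEE1 and NAMPT stood beside KLF9 in both. For GO-Rg3 against GO 0 passed with library totals alone or with only the 6 samples compared. KLF9 and NAMPT are named for these after their values were seen.

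A further list held 8 genes of cAMP and glucocorticoid signaling, both of which act on PER1: CREB1, CREM, CRTC1, CRTC2, SIK1, the glucocorticoid receptor gene NR3C1, and TSC22D3 and FKBP5, which are targets of that receptor. GO raised 1, SIK1 (log2 fold change 0.50, adjusted p = 0.0037), and lowered 1, CREM (-0.95, adjusted p = 1.9e-05), against 12.1% and 15.4% of all genes. The call of SIK1 after GO was lost with the GC offset (0.26, adjusted p = 0.031), with library totals alone (0.38, adjusted p = 0.056), and without GO replicate 3 or any 1 of the untreated replicates. With the GC offset FKBP5 was higher in its place (0.49). GO-Rg3 changed 0 (3 at an unadjusted p below 0.05 with edgeR, 0 with DESeq2). GO-Rg3-DOX raised 1 and lowered 4, against 25.5% and 30.5%. SIK1, a kinase that restrains the CREB coactivators, fell from 46.7 ± 3.05 to 11.4 ± 1.58 CPM after GO-Rg3-DOX (log2 fold change -2.03, SE 0.13, adjusted p = 3.3e-09). CREB1, the factor that binds the cAMP element, fell as well (-1.91, SE 0.16, adjusted p = 7.5e-08), while its coactivator CRTC1 rose (1.03, SE 0.17, adjusted p = 9.3e-05). With the GC offset the log2 fold changes were -2.29 for SIK1, -1.24 for CREB1 and 0.54 for CRTC1. Against GO, GO-Rg3 had 1 of these 8 genes higher, CREM (0.61, adjusted p = 0.0012), and 0 lower, against 7.33% and 6.25% of all genes. CREM and FKBP5, and SIK1 after GO, are named after their values were seen.

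The genes whose log2 CPM followed a member most closely over the 12 samples were searched among 13232 genes with a mean of at least 1 CPM. The 12 points are 4 groups of 3, so Pearson's r mostly reflects the group means, and it is given as a description. NFIL3 was matched by CCDC127 and CSTF1 (both r = 0.997), BHLHE40 by TMCC1 (0.996) and ZNF740 (0.995), and NR1D1 by IRX3 (0.993) and MKL1 (0.990). CRY1 was closest to DCK (0.992) and LONRF3 (0.988), PER2 to RP11-440L14.1 and ZNF236 (both 0.987), and NR1D2 to CXADR (0.985) and FBXO28 (0.982). PER1 followed PYCRL (0.957) and PPP1R37 (0.955), and CRY2 followed NSUN5P1 (0.952) and C11orf95 (0.949). The weakly expressed ARNTL (AQP11, 0.891, and HCG15, 0.884) and DBP (a gene known by a clone name, 0.871, and THSD4, 0.817) had looser matches.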

How the data were processed

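RNA of Huh7 cells was analysed in 12 samples, assigned to 4 groups by their labels. The authors made TruSeq stranded mRNA libraries, ran the NGI RNAseq pipeline on GRCh37 and used featureCounts for read counting. What the authors deposited is a table of unnormalized counts of 63677 genes. The annotation release and the strand setting are not given in the sources used here.

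A gene was tested when 3 or more samples reached 10 counts (17092 genes). After TMM scaling, a single model with group as its only term was fitted to the 12 samples using edgeR 4.0.16 (glmQLFit, glmQLFTest) in R 4.3.3. The Benjamini-Hochberg adjustment covered all tested genes, and the thresholds (adjusted p below 0.01, absolute log2 fold change above 1) and the filter are those of the study, which used DESeq2. SE values were derived from the F statistic. Log2 CPM used a prior count of 2. Exon lengths, GC content of the longest transcript and gene positions came from a GENCODE annotation lifted to GRCh37 (GC content for 97.25% of tested genes), and promoters from RefSeq on GRCh38.p14.

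Alternatives were RLE size factors, library totals alone, no filter, at least 10 counts in every sample, DESeq2 1.42.0, the replicate number as a block, a GC content offset (loess, span 0.5) with and without the block, mitochondrial genes left out, a fit of just the 6 samples of a comparison, leaving out every sample once and an adjusted p threshold of 0.05. Ratios within libraries also used 2 in place of 0.5 as the added count. Named genes were all 10 members, other clock genes that passed the test and CLOCK, output genes and cAMP and glucocorticoid genes that passed with an absolute log2 fold change above 1, and the 2 genes most alike to each member. The members and lists were chosen with earlier results of these data known. Of the lists, some items are not reported here. No replicates agreed within sampling noise (chi-square per degree of freedom 2.85 to 144). Totals of 27802871 to 38877420 counts put 1 CPM at many counts, and counting error is only part of the spread. Tables and figures were made with Python 3.11.15, pandas 2.3.3 and matplotlib 3.10.9.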

Additional observations from a re-analysis of the deposited data

How the results depend on the processing

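Over the 40 log2 fold changes of members, 552 of 640 values under other settings kept their direction and side of the threshold, 26 lost and 6 gained a call, and 56 changed sign. Of the 12 that passed, 164 of 192 values kept the call, and the 2 that changed sign were CRY1 after GO-Rg3-DOX with the GC offset (0.013) and with the GC offset and the block (0.012). PER2, NR1D1, BHLHE40 and NFIL3 after GO-Rg3-DOX, and BHLHE40 after GO and for GO-Rg3 against GO, passed in every fit. The count of members past the test after GO was 2, 1 with the GC offset (with or without the block), and 3 with DESeq2, no filter, the block, or without GO replicate 3, GO-Rg3 replicate 2 or GO-Rg3-DOX replicate 1 or 3. For GO-Rg3 against GO it was 3, and 1 with library totals alone, the GC offset (with or without the block) or only the 6 samples compared, and 1 to 3 when a sample was left out (1 without GO replicate 1 or 2 or GO-Rg3 replicate 2 or 3). Over all genes, GO-Rg3 against untreated cells had 10 higher and 18 lower genes, against 66 and 420 without a filter, 50 and 91 with the GC offset, 18 and 66 with the block, 15 and 76 with only the 6 samples, and 72 and 259 by DESeq2, and GO-Rg3 against GO had 163 and 319 with only the 6 samples. The cause was not tested. Low counts limit DBP and ARNTL.

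The labels give the same replicate numbers in each group, but same-numbered samples did not deviate together throughout (r over 0.1 in 7 of 18 pairs, mean 0.091, against 1 of 36 and -0.045 for other pairs). Deviations were taken from the group mean, which ties the mean of other pairs to that of same-numbered pairs. The other pairs are thus no independent reference. The meaning of the numbers is not in the labels, and they were not taken as pairs. With the number as a block, 3 members passed after GO (NR1D2 added), 0 after GO-Rg3, 7 after GO-Rg3-DOX and 3 for GO-Rg3 against GO. In the same order, 2601, 18, 4617 and 1810 of 17092 genes were higher and 3190, 66, 5477 and 1561 lower. Without the block GO had 2074 higher and 2639 lower, and GO-Rg3 against GO 1253 and 1068, so calls over all genes rose as well.

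Among values that did not pass, signs turned after GO for PER1 at -0.0048 (the GC offset), -0.0056 (the GC offset and block), PER2 at 0.016 (RLE size factors), 0.024 (10 counts in every sample), 0.0049 (mitochondrial genes left out), 0.0050 (the 6 samples), 0.016 (DESeq2), CRY2 at -0.0066 (library totals), -0.11 (the GC offset), -0.11 (the GC offset and block) and NFIL3 at 0.031 (the GC offset), 0.030 (the GC offset and block). Among values that did not pass, signs turned after GO-Rg3 for NFIL3 at 0.020 (RLE size factors), 0.019 (library totals), 0.049 (the GC offset), 0.049 (the GC offset and block), 0.017 (mitochondrial genes left out), 0.058 (the 6 samples), 0.020 (DESeq2). Among values that did not pass, signs turned after GO-Rg3-DOX for PER1 at 0.070 (RLE size factors), 0.033 (10 counts in every sample), 0.00091 (the block), 0.042 (the 6 samples), 0.070 (DESeq2) and ARNTL at 0.22 (the GC offset), 0.19 (the GC offset and block). Among values that did not pass, signs turned for GO-Rg3 against GO for PER1 at 0.089 (the GC offset), 0.088 (the GC offset and block), CRY2 at 0.066 (library totals), 0.13 (the GC offset), 0.13 (the GC offset and block), NR1D1 at 0.055 (the GC offset), 0.039 (the GC offset and block) and ARNTL at 0.091 (library totals). Leaving out 1 sample also turned signs in these ranges of log2 fold changes or log2 ratios, none of which passed: PER1/PER2, GO-Rg3 (-0.11 to 0.28), NR1D1/NR1D2, GO-Rg3 (-0.098 to 0.41), DBP/NFIL3, GO (-0.46 to 0.0053), DBP/NFIL3, GO-Rg3 (-0.0069 to 0.32), PER1, GO-Rg3 (-0.066 to 0.40), PER1, GO-Rg3-DOX (-0.0070 to 0.010), PER1, GO-Rg3 against GO (-0.45 to 0.016), PER2, GO (-0.067 to 0.068), PER2, GO-Rg3 against GO (-0.015 to 0.12), CRY2, GO-Rg3 (-0.041 to 0.099), NR1D1, GO-Rg3 against GO (-0.41 to 0.017), DBP, GO-Rg3-DOX (-0.31 to 0.20), ARNTL, GO-Rg3-DOX (-0.38 to 0.034), ARNTL, GO-Rg3 against GO (-0.23 to 0.10), NFIL3, GO (-0.12 to 0.021), NFIL3, GO-Rg3 (-0.076 to 0.064), NFIL3, GO-Rg3 against GO (-0.025 to 0.12).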
